A study of Mus musculus with 11 samples.

Results

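Radial glia identity genes were examined in chromatin profiles of Myc-tagged retinoic acid receptor alpha (RARα), made by CUT&RUN from mouse cortical progenitors at embryonic day 14. The 10 genes, of 21887 protein-coding genes in all, were given as a list: Prom1, Pax6, Lhx2, Emx2, Id4, Nes, Vim, Fabp7, Slc1a3 and Aldoc. For each gene all peaks over the gene span and 50 kb on both sides were taken from the peak lists of the 6 Myc-tag libraries. CUT&RUN uses an antibody to bring a nuclease to a protein on chromatin, so that the DNA around it is released and sequenced. Prom1-positive cortex cells were taken up with beads and permeabilised with 0.05% digitonin, and the antibody recognised the Myc tag, which RARα carries in both groups. The groups were 3 control libraries and 3 libraries of Foxc1 mutants. Foxc1 is a transcription factor that the meninges need to form, and the meninges are a source of retinoic acid. By its title the series asks how this retinoic acid acts on neurogenesis. The labels do not give the Foxc1 allele, how the tag was placed on RARα, which cells carry it, or whether replicates came from separate embryos. P-values therefore measure the spread between these libraries, which may be technical. Isotype antibody libraries, 3 of control and 2 of mutant cells, were not analysed here, and the values stand without an antibody background. Peak lists hold no expression, and the labelled cell type could not be checked by markers.

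Radial glia are the neural stem cells of the embryonic cortex. They span the wall of the brain, divide at the ventricle and give rise to neurons directly or through intermediate progenitors. Their identity rests on transcription factors such as Pax6, Lhx2 and Emx2, and they carry intermediate filaments and metabolic proteins shared with astrocytes. RARα belongs to the nuclear receptors and binds DNA together with an RXR partner, classically at direct repeats of a short half-site, and changes the transcription of nearby genes when retinoic acid is present.

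The peak lists were of very unequal length. Control replicates 1, 2 and 3 held 86446, 11869 and 30273 peaks, and mutant replicates 1, 2 and 3 held 54112, 410562 and 513290. Peak height is given in steps, a step being the smallest unit of max signal in a library. Triplets of values are in the order of replicates 1, 2 and 3. The median height was 10, 2 and 2 steps in control and 4, 4 and 4 in mutant libraries. The median width was 2326.5 bp in control replicate 1, 304 and 260 bp in control replicates 2 and 3, and 679 to 737 bp in mutant libraries. Read numbers were not used here and the depth is unknown. A gene without a peak in a short list is thus not shown to be unbound. A bulk profile also cannot tell more bound cells from more binding per cell.

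RefSeq promoter windows (250 bases before to 50 after a start, GRCm38.p6) were found for all 10 genes, 14 windows in all, and 10 of them, of 8 genes, touched a peak. The sequences of 5 are shown, read 5′ to 3′ on the gene's strand. In the first 4, capitals mark the bases that lie inside a peak, and they show how much or how little of a promoter a call covered.
Pax6, chr2:105668646-105668945, plus strand: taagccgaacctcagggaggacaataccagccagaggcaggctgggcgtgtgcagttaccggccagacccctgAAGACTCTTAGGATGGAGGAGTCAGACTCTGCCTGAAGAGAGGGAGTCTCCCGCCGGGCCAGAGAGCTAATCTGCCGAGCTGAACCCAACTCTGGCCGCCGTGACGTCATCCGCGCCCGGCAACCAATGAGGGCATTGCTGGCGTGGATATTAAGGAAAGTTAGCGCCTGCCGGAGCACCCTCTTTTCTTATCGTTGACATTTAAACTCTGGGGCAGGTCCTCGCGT
Prom1, chr5:44101687-44101986, minus strand: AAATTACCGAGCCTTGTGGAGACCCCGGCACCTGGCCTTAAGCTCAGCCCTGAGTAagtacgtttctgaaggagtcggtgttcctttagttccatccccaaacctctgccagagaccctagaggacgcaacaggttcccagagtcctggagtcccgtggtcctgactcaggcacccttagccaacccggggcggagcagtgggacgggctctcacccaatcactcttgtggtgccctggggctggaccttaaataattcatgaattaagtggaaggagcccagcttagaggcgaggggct
Id4, chr13:48260866-48261165, plus strand: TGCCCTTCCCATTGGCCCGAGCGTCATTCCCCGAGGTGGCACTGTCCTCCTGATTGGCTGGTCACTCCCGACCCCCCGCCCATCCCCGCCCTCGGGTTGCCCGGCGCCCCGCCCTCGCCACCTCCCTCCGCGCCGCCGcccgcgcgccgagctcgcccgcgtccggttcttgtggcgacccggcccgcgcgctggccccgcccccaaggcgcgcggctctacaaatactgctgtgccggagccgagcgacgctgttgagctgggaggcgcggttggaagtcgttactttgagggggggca
Slc1a3, chr15:8710758-8711057, minus strand: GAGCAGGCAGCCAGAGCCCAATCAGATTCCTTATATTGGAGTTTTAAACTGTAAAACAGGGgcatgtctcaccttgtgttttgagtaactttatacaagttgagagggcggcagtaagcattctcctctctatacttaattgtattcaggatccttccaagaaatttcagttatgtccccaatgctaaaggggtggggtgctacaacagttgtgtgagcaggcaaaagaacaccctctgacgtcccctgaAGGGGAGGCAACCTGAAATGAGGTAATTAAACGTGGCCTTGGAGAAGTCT
The Fabp7 promoter lay wholly inside a peak, so capitals mark the motif match described below instead.
Fabp7, chr10:57784673-57784972, plus strand: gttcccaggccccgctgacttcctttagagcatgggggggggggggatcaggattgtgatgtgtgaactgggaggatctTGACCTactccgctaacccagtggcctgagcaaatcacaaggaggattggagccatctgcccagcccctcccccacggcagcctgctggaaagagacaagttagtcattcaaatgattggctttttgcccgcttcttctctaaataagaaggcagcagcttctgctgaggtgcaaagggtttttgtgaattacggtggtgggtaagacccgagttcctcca

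No peak of a control library touched any of these promoters, and 10 of the 11 contacts came from mutant replicates 2 and 3, the longest lists. The Pax6 promoter had 227 of its 300 bases in a 3-step peak of mutant replicate 2 (chr2:105668719-105669536). The Prom1 promoter was grazed over 56 bases by a 5-step peak of mutant replicate 2 (chr5:44101931-44102976). The Id4 promoter had 138 bases in a 7-step peak of mutant replicate 3 (chr13:48259781-48261003), the highest of the promoter contacts. The Slc1a3 promoter was touched from its 2 sides, over 61 bases by a 4-step peak of mutant replicate 2 and over 50 bases by a 3-step peak of mutant replicate 3, so these 2 peaks did not overlap each other. The Fabp7 promoter lay inside a 3-step peak of mutant replicate 3 (chr10:57784374-57785017). A further Lhx2 promoter (chr2:38351058-38351357) was fully covered by a 5-step peak of mutant replicate 3, and the first (chr2:38339031-38339330) had 118 bases in a 4-step peak of mutant replicate 1. Over all 32851 promoter windows, 12.8%, 0.228% and 0.381% touched a peak in control libraries, and 2.09%, 14.6% and 29.3% in mutant libraries. Of the 14 windows of the radial glia genes 0 were touched in each control library and 1, 4 and 6 in mutant libraries. Windows of 1 gene lie close together, and no stretch of promoter was under peaks of more than 1 library.

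Direct repeats of the retinoic acid half-site were not found in any of the 14 promoters. The search covered AGGTCA and its variants (AGTTCA as the first variant, GGGTCA as the next, and then GGTTCA) in every pairing with spacers of 1, 2 or 5 bases on both strands, and 0.588% of all promoters held such a repeat. A single AGGTCA, on either strand, was present in 16.3% of all promoters and in 1 of the 14, that of Fabp7, where it reads on the opposite strand at bases 80 to 85 of the sequence above. No match says only that these letters are not in the window.

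In the wider windows, all 10 genes had peaks in control replicate 1 and in every mutant library, 3 had peaks in control replicate 2 (Vim, Fabp7 and Id4) and 6 in control replicate 3 (Pax6, Prom1, Vim, Slc1a3, Lhx2 and Emx2). Of all protein-coding genes, 93.8%, 41.4% and 72.8% had a peak in control libraries, and 89.2%, 97.2% and 96.9% in mutant libraries. Vim was the only one of the 10 with a peak in all 6 libraries, which 30.2% of all genes had. The difference of 3.67 genes between the mutant and control means disappeared with control replicate 1 as the sole control (0 genes). When lists were shortened to the 11869 peaks of highest total signal per library it turned to −0.667. A peak in such an equal-length list was found for 6, 3 and 4 of the 10 genes in control and 6, 2 and 3 in mutant libraries, against 48.0%, 41.4% and 41.8% of all genes in control and 43.6%, 37.4% and 34.5% in mutant libraries. Nes alone among the 10 had none in any equal-length list.

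Peak numbers in the windows lay within the range of most genome stretches of the same width, apart from Aldoc in mutant replicate 3. Windows of the width of each gene window were laid end to end over chromosomes 1 to 19, 11518 to 23202 of them. Of the 60 values (10 genes in 6 libraries), 24 were above the median of these tiles, none was above their 95th percentile and 1 was below their 5th percentile. Values equal to a median were not counted as above it. In control replicates 2 and 3, and for most genes in mutant replicate 1, the 5th percentile was 0, so no value there could be below it. Summed over the 10 genes, 40, 4 and 12 peaks were counted in control libraries, where the list length and window width gave an expected 41.7, 5.72 and 14.6. In mutant libraries, 26, 227 and 261 peaks were counted against 26.1, 198 and 247 expected. The 10 genes together thus lay at 0.699 to 1.15 times the expected number, and all protein-coding genes at 0.922 to 1.13 times. Counts of 0 to 7 per window in the control libraries give little precision for any 1 gene.

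**Figure D1:**
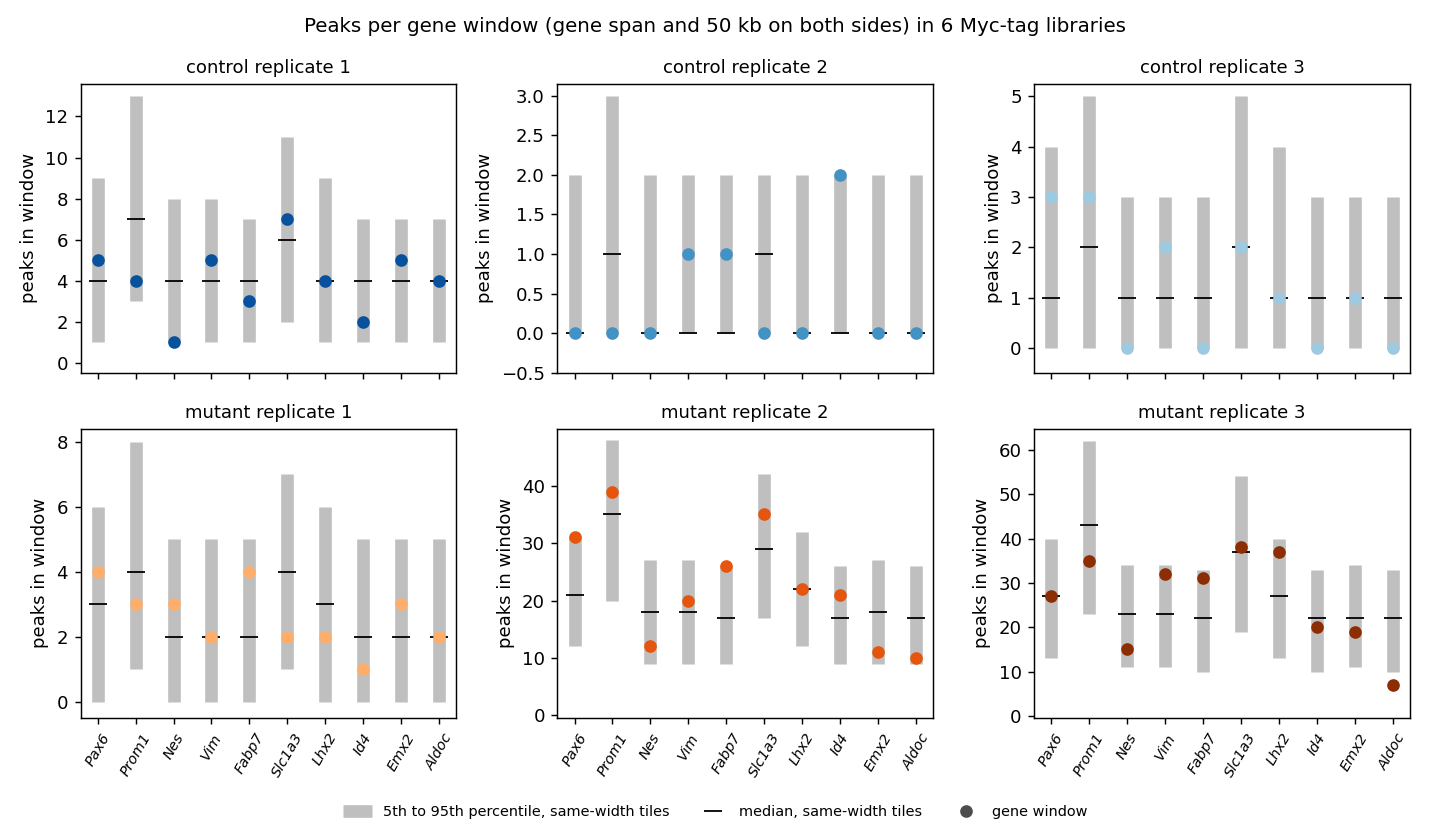
Number of peaks (vertical axis) in the window of each gene (horizontal axis) in each Myc-tag library, with the median and the 5th to 95th percentile of same-width tiles of the genome. Most points lie within the grey bars, and the Aldoc window in mutant replicate 3, with 7 peaks, is the point below its bar.

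Prom1 encodes prominin 1, a membrane protein of the apical surface of radial glia and the handle by which the cells were enriched. Its gene is the longest of the set (chr5:43993621-44102047, minus strand, 108 kb). The window held 4, 0 and 3 peaks in control libraries and 3, 39 and 35 in mutant libraries, where the tile medians were 7, 1, 2, 4, 35 and 43. Control replicate 3 and mutant replicate 2 were above the tile median and the other libraries below it, so the genotypes overlapped. The 4 peaks of control replicate 1 all lay near or beyond the 3′ end of Prom1, the closest 104.3 kb from the start. The tallest, 12 steps, overlapped a region over Fgfbp1, a neighbour that encodes a binding protein of fibroblast growth factors, joined by 6-step and 3-step peaks of mutant replicates 2 and 3 (chr5:43977240-43980662). Control replicate 3 had 3 peaks of 3 steps, the nearest 32.3 kb from the start, and the nearest of mutant replicate 1, of 6 steps, lay 59.6 kb inside the gene. The 5-step peak of mutant replicate 2 that grazed the promoter window lay over the gene start, from −929 to 116 bp. That window belongs to a start further into the gene, at chr5:44101736. The nearest peak of mutant replicate 3, of 4 steps, lay 1.32 kb inside the gene.

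Pax6 encodes the paired-box transcription factor that drives cortical radial glia towards neurogenesis. Its window (gene at chr2:105668896-105698410, plus strand) also holds the 3′ part of Elp4, an Elongator subunit gene whose introns are known to house Pax6 enhancers. It held 5, 0 and 3 peaks in control libraries and 4, 31 and 27 in mutant libraries, against tile medians of 4, 0, 1, 3, 21 and 27. Mutant replicate 2 stood high, as 6.52% of tiles had at least 31 peaks there. Of the 70 peaks in all, 15 touched the Pax6 span and 30 the Elp4 span. A region 31.0 to 32.5 kb from the Pax6 start, inside Elp4, was called at 4, 6 and 4 steps in mutant libraries and in no control library (chr2:105699871-105701418). Further into Elp4, at 65.0 to 66.9 kb, an 8-step and a 6-step peak of mutant replicates 2 and 3 met a 2-step peak of control replicate 3.

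Lhx2 and Emx2 are homeobox genes that set cortical identity. The Lhx2 window (gene at chr2:38339271-38369737) held 4, 0 and 1 peaks in control and 2, 22 and 37 in mutant libraries, against tile medians of 4, 0, 1, 3, 22 and 27. Mutant replicate 3 was its high library, with 22.4% of the window covered by peaks. A pair of flanking regions was shared by control replicate 1 and mutant replicates 2 and 3, with 14, 4 and 5 steps at −48.6 to −46.6 kb from the start and 13, 8 and 2 steps at 48.6 to 52.0 kb. The Emx2 window (gene at chr19:59458690-59465357) held 5, 0 and 1 peaks in control and 3, 11 and 19 in mutant libraries, against medians of 4, 0, 1, 2, 18 and 22. Control replicate 1 and mutant replicate 1 were above the tile median, and mutant replicates 2 and 3 were below it. Emx2 had the control peak closest to a start, a 9-step peak 752 to 3373 bp into the gene in control replicate 1, met at 524 to 1409 bp by a 5-step peak of mutant replicate 3.

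Id4 encodes an inhibitor of basic helix-loop-helix factors that is active in neural progenitors. Its window (gene at chr13:48261116-48266028) held 2, 2 and 0 peaks in control and 1, 21 and 20 in mutant libraries, against tile medians of 4, 0, 1, 2, 17 and 22. The 2 peaks of control replicate 2 were 2 steps high and made up 4.27 times the expected number, because only 0.468 peaks were expected there. Around the start, mutant replicate 3 had 4 peaks within 5 kb, of which the tallest, 8 steps, lay 952 to 1727 bp into the gene.

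Nes and Vim encode nestin and vimentin, the intermediate filaments of radial glial fibres. Nes (chr3:87971093-87980451) was the gene with fewest control peaks: 1, 0 and 0 in control libraries, against 3, 12 and 15 in mutant libraries. The tile medians were 4, 0, 1, 2, 18 and 23, so both long mutant lists were below them too. No peak touched Nes itself in control libraries, and mutant replicate 3 had a 6-step peak at −815 to −300 bp from its start. The window also holds Crabp2, which encodes a retinoic acid binding protein, and its span touched 1 peak, of 3 steps in mutant replicate 2. The Vim window (gene at chr2:13574311-13582826) held 5, 1 and 2 peaks in control and 2, 20 and 32 in mutant libraries, against medians of 4, 0, 1, 2, 18 and 23. Vim was above the tile median in all 3 control libraries. Its 10-step peak in mutant replicate 3, 36.6 kb before the start and inside Trdmt1, was the tallest mutant peak in any of the windows, and 0.235% of that library's peaks were at least as high. The 2 regions called in 4 libraries, control replicate 1 and all mutant libraries, also lay here, both far from the gene. One ran from −52.3 to −46.8 kb inside Trdmt1, a methyltransferase gene, and past the window's edge, with 13, 4, 6 and 6 steps (chr2:13521981-13527552). The other ran from 46.0 to 48.4 kb, within the window, with 10, 3, 4 and 4 steps (chr2:13620352-13622744).

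Fabp7, Slc1a3 and Aldoc encode a fatty acid binding protein, a glutamate transporter and an aldolase, all shared by radial glia and astrocytes. The Fabp7 window (gene at chr10:57784923-57788450) held 3, 1 and 0 peaks in control and 4, 26 and 31 in mutant libraries, against tile medians of 4, 0, 1, 2, 17 and 22. All 3 mutant libraries were above the tile median, and 19.7%, 5.32% and 9.36% of tiles had at least as many peaks. Within the gene, a 4-step peak of mutant replicate 1 (431 to 876 bp from the start) lay inside the range of a 6-step peak of mutant replicate 2 (262 to 890 bp). The Slc1a3 window (gene at chr15:8634124-8710807, minus strand) held 7, 0 and 2 peaks in control and 2, 35 and 38 in mutant libraries, against medians of 6, 1, 2, 4, 29 and 37. A region 4245 to 6003 bp into Slc1a3 was called at 8, 3 and 5 steps in mutant libraries and in no control library (chr15:8704804-8706562). The 8-step peak was tall for its library, as 0.632% of the peaks of mutant replicate 1 were at least as high. The Aldoc window (gene at chr11:78323073-78327781), which holds parts of 6 other protein-coding genes, had 4, 0 and 0 peaks in control and 2, 10 and 7 in mutant libraries, against medians of 4, 0, 1, 2, 17 and 22. Mutant replicates 2 and 3 were low there, and 97.7% of tiles had at least 7 peaks in mutant replicate 3. The peak with the most steps in any window, 16 in control replicate 1, lay 16.8 kb after the Aldoc start. It was within the span of Pigs, a gene of the GPI transamidase, and 3.13% of that library's peaks were at least as high. A step was 0.050 of max signal in control replicate 1 and 1.63 in mutant replicate 3, so steps do not rank signal across libraries.

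**Figure D2:**
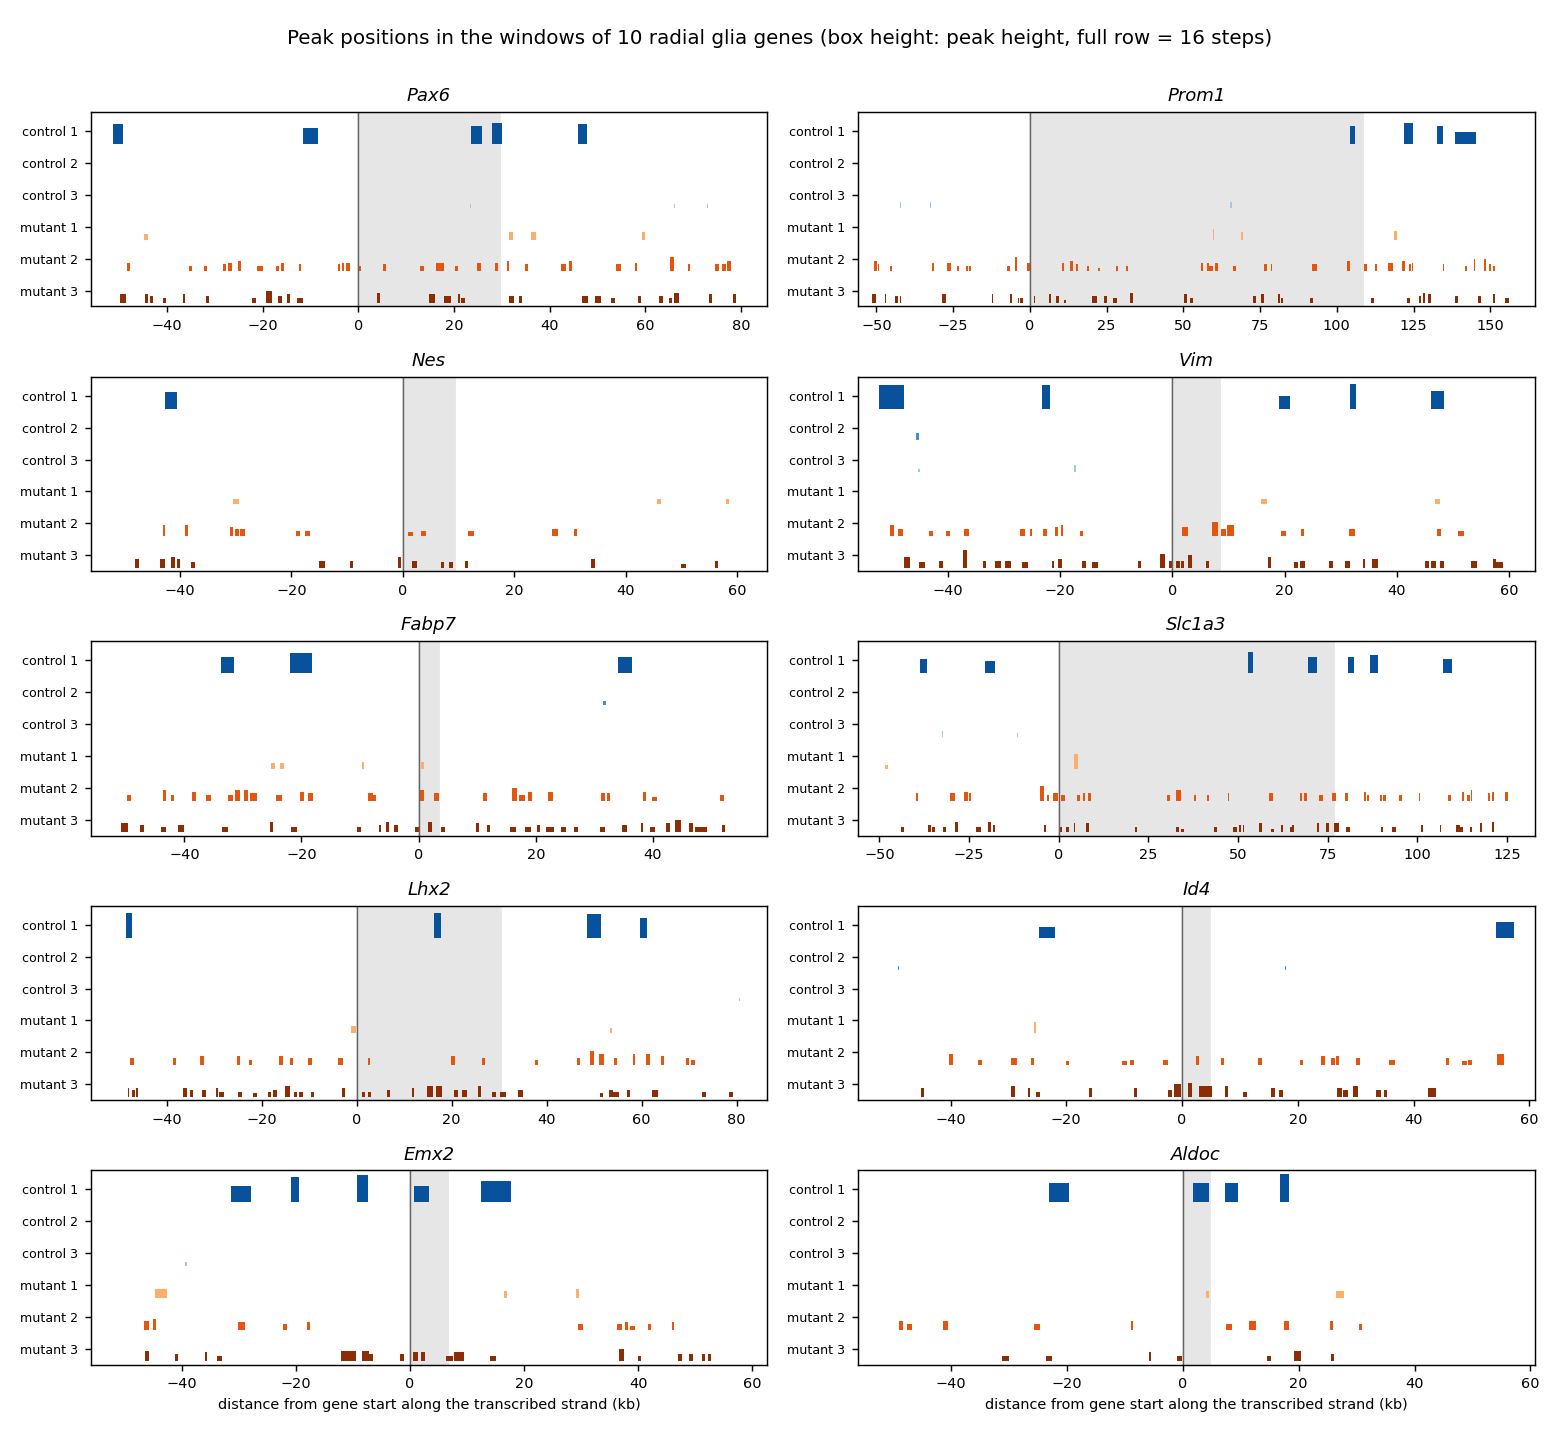
Peaks of the 6 libraries along the window of each gene, as distance from the gene start in kb along the transcribed strand, with the gene span in grey and box height in proportion to peak height in steps. Wide boxes of 6 to 16 steps mark control replicate 1, and few boxes stand in control replicates 2 and 3. Mutant replicates 2 and 3 have boxes of 2 to 10 steps along the whole windows.

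Pooled over all libraries and all 10 genes, peaks were not gathered at the genes themselves. The gene spans made up 22.0% of the summed window length and touched 128 of the 570 peaks, 22.5%. Of the 570 peaks, 227 and 261 came from mutant replicates 2 and 3, so this share describes mainly those lists. Gene by gene, the share of peaks was above the share of length for Nes (16.1% against 8.56%), Vim, Fabp7, Lhx2, Id4, Emx2 and Aldoc. It was below it for Pax6, Slc1a3 and Prom1 (44.0% against 52.0%). A peak counts as touching from 1 bp, so a short span can touch more peaks than its length alone gives. These differences were not tested. Within 5 kb of the start a peak was found for 2, 0 and 0 of the 10 genes in control libraries (Emx2 and Aldoc in replicate 1), and 4, 8 and 10 in mutant libraries. The 4 genes in mutant replicate 1 were Fabp7, Slc1a3, Lhx2 and Aldoc. Of 17492 genes with a known strand, 43.1%, 3.74% and 9.06% had such a peak in control libraries, and 19.7%, 79.5% and 84.8% had one in mutant libraries. The counts in mutant replicates 2 and 3 were thus near the share of all genes, that of control replicate 1 was below it and that of mutant replicate 1 above it. With 10 genes, the departures in these 2 libraries rest on few genes and were not tested.

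Peak heights in the windows ran from 6 to 16 steps in control replicate 1 (median 10.5), 2 to 4 in control replicates 2 and 3 (median 2), 2 to 8 in mutant replicates 1 and 2 and 2 to 10 in mutant replicate 3 (median 4 in each). These medians equal those of the whole lists except in control replicate 1, whose list had a median of 10. A peak of at least 5 steps was present for 10, 0 and 0 genes in control and 4, 10 and 10 in mutant libraries, against 93.8%, 0.969% and 2.30% of all genes in control and 49.6%, 95.6% and 95.9% in mutant libraries. The highest peak of a gene was among the top 10% of its library in 20 of the 49 cases with a peak, against 38.3% of all pairs of a gene and a library with a peak. By total signal it was so in 32 of 49 cases, against 47.7% of all pairs. By library, 4, 1 and 1 genes in control and 3, 6 and 5 in mutant libraries were in the top 10% by max signal, where 38.7%, 8.77% and 12.3% of all genes with a peak were so in control and 22.5%, 53.7% and 68.9% in mutant libraries.

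Positions recurred between libraries about as often as elsewhere. Overlapping peaks were merged into 439 regions that touch the windows, some of them running past a window's edge. In 2 or more libraries 99 (22.6%) were called, in 3 or more 19 (4.33%) and in 4 or more 2 (0.456%). Over the whole genome the shares were 25.9%, 5.25% and 0.581% of 805693 regions. Of the 99 shared regions 49 (49.5%) were shared by mutant replicates 2 and 3 alone, the lists that cover most sequence. Of all shared regions 50.9% were of that kind. Both genotypes shared 39 regions (8.88%), against 9.85% of all regions. Control replicate 1 took part in 35 of the 99, and in 67679 of the 208873 shared regions of the whole genome. The regions called in every mutant and no control library were the 2 in Elp4 beside Pax6 and in Slc1a3, 0.456% of the 439, where 0.740% of all regions had that pattern. With an overlap of 50% of the shorter peak required, 70 of 484 regions (14.5%) were shared, against 18.2% of all regions. At that setting 0 of the 484 were called in every mutant and no control library, a pattern that 0.330% of all regions had. Every mutant library called 4 of the 439 regions, controls aside, and 1.12% of all regions were of that kind. A single region, in Trdmt1 at −45.7 to −44.1 kb from the Vim start, was called in more than 1 control library, with 4 and 2 steps in control replicates 2 and 3 and 3 steps in mutant replicate 3 (chr2:13528636-13530234), and 0.618% of all regions had 2 or 3 control libraries. No region of these windows was called in all control and no mutant library, a pattern that 0.00310% of all regions had.

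To set the genotypes against each other, the peak number of each window was divided by the number expected from its width and the length of the list, and log2 of this relative density was fitted with limma over 21181 genes. A pseudocount of 0.5 peaks was added to both numbers, so an empty window has a value that depends on the list. In the fit no gene passed an adjusted p of 0.05 (0 genes, 0.00% called), and at an unadjusted p under 0.05 there were 437 genes higher in mutant libraries (2.06%) and 622 lower (2.94%), none of them among the 10. Without control replicate 1 the fit called 110 genes, again none of the 10. The median difference, mutant minus control, was 0.37 over the 10 genes and 0.10 over all genes tested, and 9 of the 10 and 56.1% of all genes were above 0. With a pseudocount of 1, 7 of the 10 were above 0. Without control replicate 2 the median of the 10 genes was 0.06. With equal-length lists, where 4 of the 10 genes could be fitted, the median was −0.33. Adjusted p-values (limma, Benjamini-Hochberg) of the 10 genes ran from 0.927 to 0.990.

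Nes and Fabp7 had the largest differences. Multiples of the expected number are given without the pseudocount and log2 values with it. The relative density of Nes was 0.282, 0 and 0 times the expected in control libraries and 1.35, 0.711 and 0.711 times in mutant libraries. The lowest mutant library was thus above the highest control library, a separation that 6.44% of all genes showed in this direction and 5.29% in the other, and that no other of the 10 genes showed. The log2 mean of Nes was −1.41 ± 0.41 (SD, n = 3) for control against −0.20 ± 0.48 (SD, n = 3) for mutant libraries, and the difference was 1.21 (SE 0.74, adjusted p = 0.927 by limma, exact permutation p = 0.1, the smallest that 3 against 3 allows). It rests on a total of 1 control peak. The relative density of Fabp7 was 0.892, 2.17 and 0 times the expected in control and 1.90, 1.63 and 1.55 times in mutant libraries, and the 2.17 of control replicate 2 stood for a single 2-step peak. With the pseudocount, on the log2 scale of the fit, that library was at 0.64, below mutant replicates 1 and 2 (0.79 and 0.69) and above mutant replicate 3 (0.62). Its log2 difference was 1.11 (SE 0.56, adjusted p = 0.927 by limma), and without control replicate 3 it was 0.45.

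The remaining genes overlapped between genotypes. Their log2 differences were 0.64 for Lhx2, 0.52 for Prom1, 0.44 for Pax6, 0.30 for Slc1a3, 0.19 for Id4, 0.13 for Emx2 and 0.10 for Aldoc, with standard errors of 0.53 to 0.77. For Id4 the direction depends on the scale, as the mean relative density without the pseudocount was 1.62 in control and 0.918 in mutant libraries. The difference of Prom1 was 0.083 without control replicate 2 and 0.98 without control replicate 3, and that of Lhx2 was 0.35 without control replicate 2. Vim had the only negative difference, −0.28 (SE 0.45). The relative density of Pax6 was 1.19, 0 and 2.04 times the expected in control and 1.52, 1.55 and 1.08 times in mutant libraries. For Prom1 it was 0.591, 0 and 1.27 times against 0.708, 1.21 and 0.871 times. For Aldoc it was 1.18, 0 and 0 times against 0.939, 0.619 and 0.347 times. In these genes the mutant values lay between those of the empty control libraries and the highest control library. The control values of Vim were close together at 1.42, 2.07 and 1.62 times the expected, and its mutant values of 0.906, 1.19 and 1.53 reached into them. The order of the 10 differences is no ranking, since every neighbour in it lay within 1 standard error. Under the alternatives tried the direction of Pax6, Prom1, Vim, Slc1a3, Id4, Emx2 and Aldoc turned at least once, and that of Nes, Fabp7 and Lhx2 did not in those where they could be fitted.

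**Figure D3:**
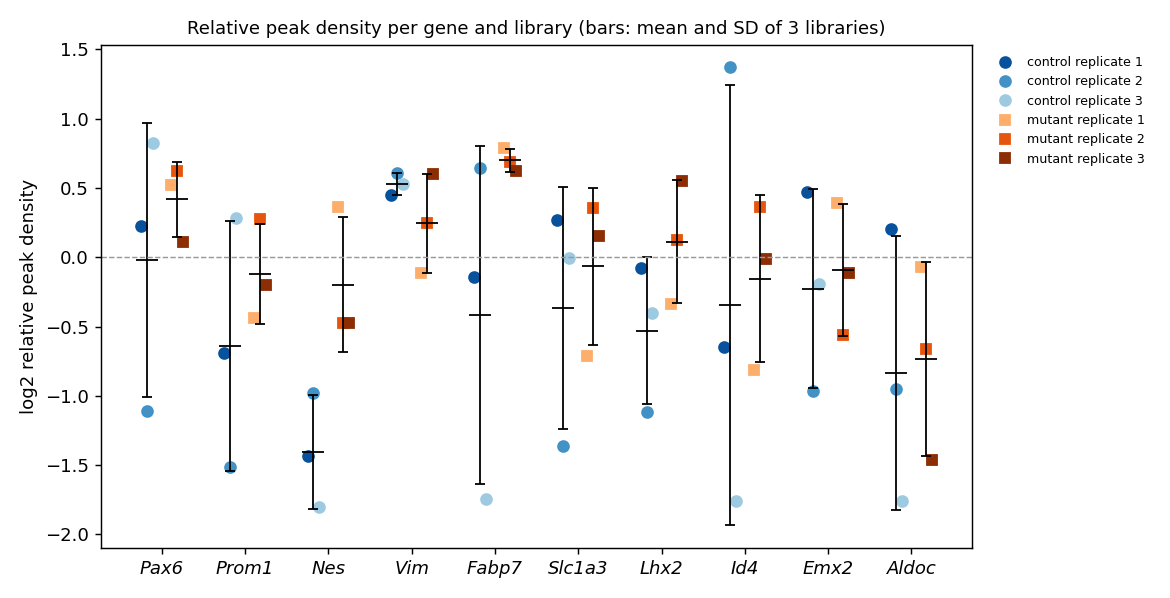
Log2 relative peak density (vertical axis; 0 means the number expected from window width and list length) of each gene in 3 control and 3 mutant libraries, with mean and SD. Only for Nes do the squares of the mutant libraries all lie above the circles of the control libraries.

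**Figure D4:**
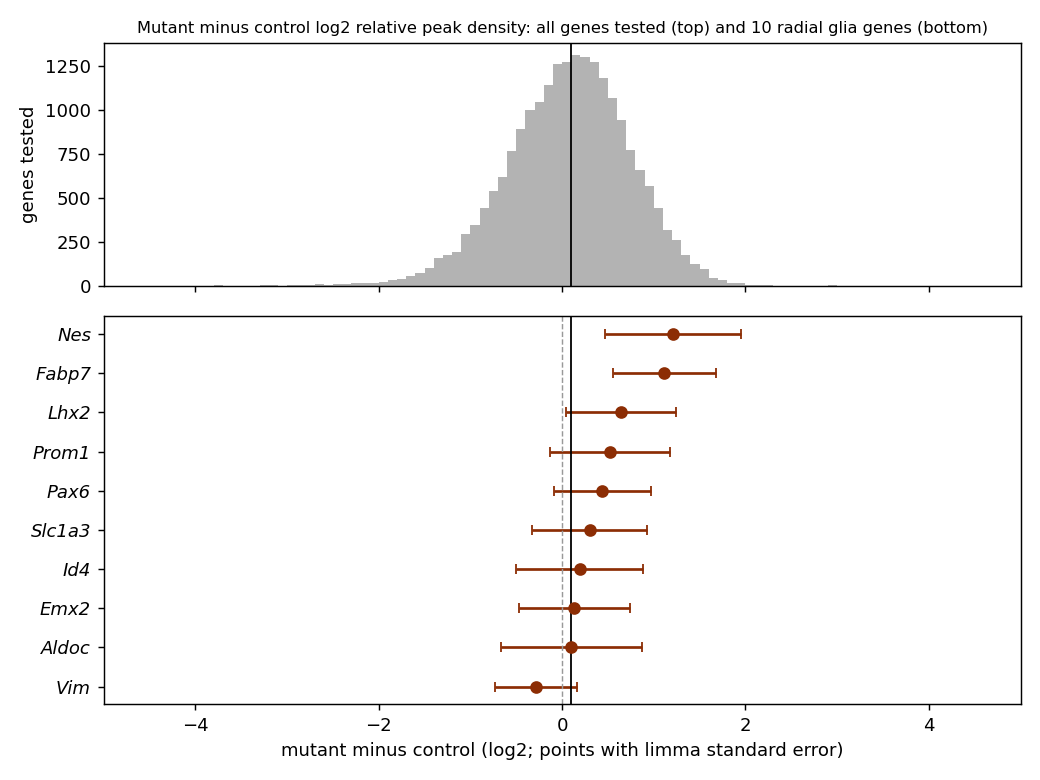
Mutant minus control difference in log2 relative peak density for 21181 genes (histogram, top) and for the 10 radial glia genes with the standard error from limma (bottom); the black line is the median of all genes, 0.10. The 10 genes run from −0.28 for Vim to 1.21 for Nes, and Nes and Fabp7 (1.11) lie at the upper end of the histogram, where 3.57% and 4.98% of genes had at least as large a difference.

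Other radial glia genes gave a like picture. Of 20 such genes 0 passed the test in either direction, and the median difference was 0.30, with 14 of 20 above 0. They had a peak in 20, 5 and 16 cases in control and 18, 20 and 20 in mutant libraries. Emx1, a cortical homeobox gene, had 5, 1 and 3 peaks in control and 3, 9 and 11 in mutant libraries, or 0.501 and 0.489 times the expected in the last 2. Dmrta2, a transcription factor of cortical progenitors, had 11, 0 and 1 peaks in control and 3, 17 and 24 in mutant libraries, with 3.20 times the expected in control replicate 1. Ptprz1, a receptor phosphatase of radial glia, had 14, 0 and 5 and 4, 71 and 87 peaks. The 15 genes of intermediate progenitors and neurons had a median difference of 0.49 with 11 above 0, the 10 genes of meninges and vessels 0.28 with 7 above 0, and the 6 retinoid receptor genes 0.12 with 4 above 0. Tbr1, a factor of young deep-layer neurons, had 6, 0 and 1 peaks in control and 3, 22 and 37 in mutant libraries, and Neurod2, a neuronal differentiation factor, had 2, 2 and 0 against 2, 14 and 15. Aldh1a2, the enzyme by which the meninges make retinoic acid, had 3, 0 and 2 peaks in control and 5, 25 and 33 in mutant libraries. None of these genes passed the test (limma, smallest adjusted p = 0.927). Rarb, a retinoic acid receptor and classical target of its own pathway, had 31, 2 and 9 peaks in control and 14, 120 and 167 in mutant libraries, 0.597 to 1.27 times the expected.

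Genes within 1 Mb of Pax6 or Prom1 were left out of a search for like patterns. Of the rest, the genes nearest to Pax6 and Prom1 in their 6 values lay on other chromosomes. By Euclidean distance over the log2 relative densities of the 6 libraries, Olfr644, an olfactory receptor gene, was nearest to Pax6 at 0.31 and Vmn2r79, a vomeronasal receptor gene, next at 0.33. For Prom1 they were Itga11, an integrin gene, at 0.39 and Adamts16, a metalloprotease gene, at 0.43.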

How the data were processed

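Peak lists of 6 Myc-tag CUT&RUN libraries (3 control, 3 Foxc1 mutant, grouped by title) were used. The submitters' processing notes name SEACR, a peak caller, and mm10, and every library came with a list of its own from the authors, named as relaxed output. Settings, aligner, read filters, controls and scaling were not given in the sources used here. Deposited values are the total and the max signal of a peak, of unstated scale. Max signals below 100 steps were whole multiples of 1 step within 0.01.

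Contigs were left out, and chromosomes 1 to 19, X and Y used. Genes, of GRCm38.p6, came from RefSeq. Overlap counted from 1 bp. Tiles were laid systematically instead of drawn at random. Relative density was log2((peaks + 0.5)/(expected + 0.5)), fitted with limma 3.58.1 (R 4.3.3, trend) on genes with a peak in at least 3 libraries, and an exact permutation test (two-sided, 20 assignments) was run per gene. On simulated Poisson counts for this comparison, 70 of 198 tested genes changed 4-fold were called, with 0 false calls (21173 genes tested). Poisson counts hold no spread between libraries beyond counting, so these numbers do not give the recovery or the false calls in the real libraries. Members and lists were chosen with earlier results of these data known. Named genes were the 10 members and the 2 nearest to Pax6 and Prom1, leaving out genes within 1 Mb. Of each other list up to 4 were named, by libraries with a 5-step peak and then density. Cdh2, Map2, Neurod6, Foxc2, Pdgfrb, Col1a1, Rara, Rxrb and Rxra also met that rule and are covered by their lists. Alternatives covered pseudocount, list length, windows of 5 and 25 kb, covered bases, filter, library weights, a replicate block, left-out libraries, tile grid, height by total signal and 50% overlap.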

Additional observations from a re-analysis of the deposited data

How the results depend on the processing

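None of the 10 genes passed an adjusted p of 0.05 in any of the fits run (smallest adjusted p = 0.260, limma), and of 139 values 119 kept their direction. The number of genes called over all genes was 0 in the main analysis (limma), 510 with equal-length lists (10245 genes tested), 7 with windows of 5 kb, 5 with 25 kb, 6 with covered base pairs and 0 to 110 with 1 library left out, the 110 without control replicate 1. The cause was not tested. With the replicate block it was 7. Deviations of same-numbered libraries correlated at −0.03, −0.0036 and −0.0068 over genes, and those of the other pairs at −0.025 to 0.030. Most genes had no peak in control replicate 2, so such values cannot show whether replicate numbers pair the libraries.

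The median difference of the 10 genes was −0.33 with equal-length lists and 0.06 to 0.59 with 1 library left out. The difference in genes with a peak was −0.667 with equal-length lists, 2 to 5.5 with 1 library left out, and 0 without control replicates 2 and 3, an alternative chosen after seeing the data. The highest peak was in the top 10% in 32 cases by total signal, against 20.

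Directions turned as follows. With a pseudocount of 1, Emx2 was at −0.011 and Aldoc at −0.20. With equal-length lists, Prom1 was at −0.94. With 5 kb, Aldoc was at −0.63. With 25 kb, Vim was at 0.094, Id4 at −0.061 and Emx2 at −0.076. With library weights, Emx2 was at −0.12 and Aldoc at −0.072. Without control replicates 2 and 3, which leaves 1 control library that limma takes to vary like the others, Slc1a3 was at −0.33, Emx2 at −0.57 and Aldoc at −0.94. With 1 library left out, Pax6 ranged from −0.11 to 0.86, Slc1a3 from −0.20 to 0.62, Id4 from −0.52 to 1.05, Emx2 from −0.23 to 0.48 and Aldoc from −0.36 to 0.62. Without a change of direction, Prom1 ranged from 0.083 to 0.98, Lhx2 from 0.35 to 0.87, Vim from −0.46 to −0.10, Nes from 0.93 to 1.42 and Fabp7 from 0.45 to 1.64. Pax6, Slc1a3 and Emx2 turned without control replicate 2, Id4 and Aldoc without control replicate 3, Emx2 and Aldoc without mutant replicate 1 and Id4 without mutant replicate 2. The control lists of 11869 and 30273 peaks limit every comparison here.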
